A study of Mus musculus with 18 samples.

Results

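Fatty acid oxidation and ketone body metabolism are described here in mouse liver through 33 genes of these pathways, chosen by name from the 54532 genes measured by RNA sequencing. The list holds 16 genes of the mitochondrial steps, 6 of the peroxisomal steps, 3 whose enzymes are found in both compartments, 4 acyl-CoA thioesterases, 1 gene of ketone body formation (Bdh1) and 3 genes of fuel choice and related functions (Pdk4, Ucp2 and Vnn1). All 33 were in the table under a single identifier each. All had a mean of at least 1 FPKM (fragments scaled by transcript length and by a size factor for each library). This level was required for testing, and 10216 genes reached it.

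The livers came from 18 male C57BL/6J mice, an inbred strain, in groups of 6, which entered the experiment at 6 weeks of age and had 1 week to settle in. Normal control (NC) mice were kept on standard chow, and HFD mice were given a high-fat diet for 14 weeks and then saline with the high-fat diet continued. SZ-A mice had the same 14 weeks of high-fat diet and then, on the same diet, SZ-A, the alkaloid extract of mulberry twig (Ramulus Mori). The period on saline or SZ-A was 8 weeks by the series record, whereas the methods text gives 6 weeks, and neither the dose nor the route is named for the sequenced mice. All animals were fasted overnight before the livers were taken, so each level below is that of a fasted liver. The model is a diet model in intact mice, with no gene deleted and no transgene.

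Fatty acids enter mitochondria as carnitine esters, through the carnitine palmitoyltransferases and a carrier between them. They are then shortened in repeated rounds of dehydrogenation, hydration, a further dehydrogenation and thiolysis, and in the fasted liver much of the acetyl-CoA formed is turned into ketone bodies. Peroxisomes run a parallel route for very long-chain, branched and dicarboxylic acids with their own bifunctional enzymes and thiolases, and hand the shortened chains on as carnitine esters. Many of these genes are known targets of the fatty acid receptor PPARα.

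Libraries held 17163191 to 20493907 fragments on genes, so that even the scarcest of the 33 genes, Pdk4, was counted with 107 to 1144 fragments in each mouse. Hepatocyte markers were abundant in every library, as the label liver requires. The summed level of 6 markers was 37737 to 56772 FPKM in NC, 23713 to 42093 FPKM in HFD and 30138 to 53700 FPKM in SZ-A mice. Of these markers, Apoa1, Serpina1a and Cps1 were lower in HFD than in NC mice. The mouse NC6 carries a diet label of high-fat diet against its title. It was kept in NC by its title. Of the 2062 genes that differed between HFD and NC mice, its level was nearer to the NC mean for 76.4%, against 86.9% to 92.9% in the other NC mice and 5.63% to 16.2% in HFD mice. These genes were picked with NC6 counted as NC, which favours genes where it resembles NC, so the share cannot test its label. SZ-A5 stood apart in 5 of the 33 genes and had the lowest level of the clock gene Dbp among SZ-A mice (7.23 FPKM against 29.4 to 47.1). Results that change without either mouse are given both ways.

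The 33 genes spanned a wide range of levels, compared per length in FPKM and averaged over all 18 mice. Acaa1b, a peroxisomal thiolase, was the most abundant at 1424 FPKM. It was followed by Acaa2, a mitochondrial thiolase, at 706 FPKM, and by Ehhadh, the peroxisomal bifunctional enzyme, at 505 FPKM. At the lower end stood Acot3 (10.8 FPKM), Ucp2 (7.13 FPKM) and Pdk4 (5.83 FPKM). The mitochondrial steps varied little between mice of a group, with a median coefficient of variation over the 16 genes of 10.9% for NC, 10.6% for HFD and 9.13% for SZ-A mice. For the 4 thioesterases it was 28.6%, 40.3% and 27.1%, and Pdk4 reached 70.2% in SZ-A mice. A change of given size was therefore easier to resolve in the mitochondrial genes than in the thioesterases or Pdk4.

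The comparison of HFD with NC mice shows the state of the pathway after the high-fat diet. Of the 33 genes, 11 passed the test (limma, adjusted p under 0.05 over all 10216 genes and a fold change over 1.2), against 20.2% of all genes tested. Lower in HFD mice were Cpt1a, Acadl, Hadha, Hadhb, Etfdh, Ehhadh, Crat and Acot1. Higher in HFD mice were Hadh, Ucp2 and Vnn1. The 8 lower genes compare with 9.49% of all genes and the 3 higher with 10.7%. The median log2 fold change of the 33 genes was -0.151, against -0.0334 for all genes tested. When each mouse was instead scaled to a common sum of FPKM, all genes moved up by a shared shift, to a median of 0.154, and the 33 genes to 0.0418, so that the distance of the 33 genes below all genes was -0.117 and -0.112 on the respective scales.

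**Figure D1:**
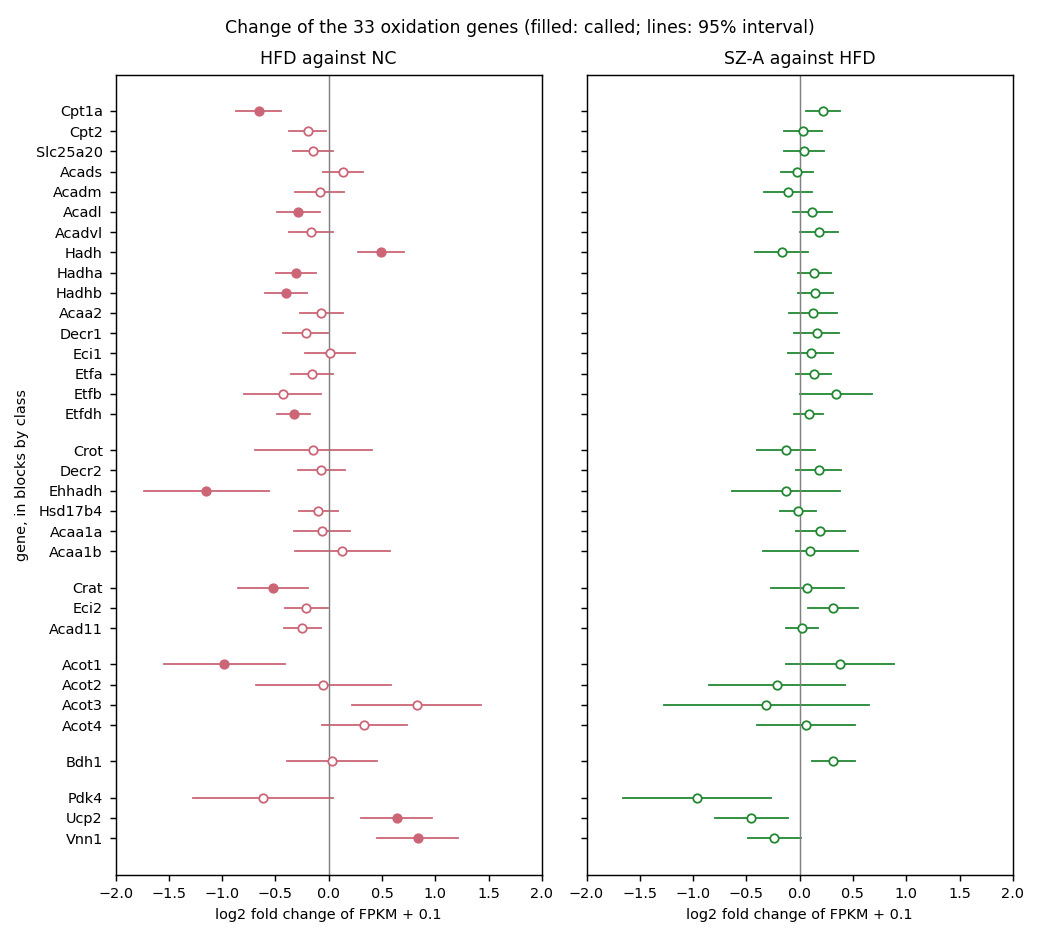
Log2 fold change of the 33 genes in HFD against NC mice (left) and in SZ-A against HFD mice (right), each 6 mice against 6, in blocks from top to bottom of mitochondrial steps, peroxisomal steps, enzymes of both compartments, thioesterases, Bdh1, and Pdk4, Ucp2 and Vnn1. Points are estimates, lines are 95% intervals, and filled points passed the test: 11 genes on the left and 0 on the right.

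Entry into mitochondria held the gene with the smallest adjusted p of the 33. Cpt1a encodes the liver carnitine palmitoyltransferase 1, the rate-controlling enzyme of mitochondrial oxidation, and lies at chr19:3323301-3385732 on the plus strand of GRCm38. Its level ran from 182 to 255 FPKM (median 248) in NC mice, from 135 to 172 FPKM (median 147) in HFD mice and from 162 to 192 FPKM (median 172) in SZ-A mice. No HFD mouse reached the lowest NC mouse, NC5. Separation without overlap in this direction was found for 4.97% of all genes, and among the 33 for Cpt1a and Etfdh. Cpt1a fell 1.58-fold in HFD mice, with a log2 fold change of -0.66 ± 0.10 (SE, n = 6 per group, limma adjusted p = 0.000699), and was lower in each of the 24 alternative analyses. In bulk tissue, less RNA per cell and fewer cells that carry it cannot be told apart.

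The other entry genes showed smaller differences. Cpt2, the carnitine palmitoyltransferase of the inner membrane, had medians of 126 FPKM for NC, 111 FPKM for HFD and 117 FPKM for SZ-A mice, and its log2 fold change in HFD mice of -0.20 ± 0.08 did not pass (adjusted p = 0.101). Slc25a20, the carrier for carnitine esters, had medians of 44.4, 39.0 and 39.2 FPKM in the same order (adjusted p = 0.243 for HFD against NC). Crat, the carnitine acetyltransferase that buffers acetyl-CoA in mitochondria and peroxisomes, ran from 30.6 to 36.6 FPKM (median 32.8) in NC mice, from 14.4 to 31.3 FPKM (median 24.1) in HFD mice and from 19.6 to 27.1 FPKM (median 25.1) in SZ-A mice. A single HFD mouse, HFD4, reached into the NC range. Crat was lower in HFD mice by a log2 fold change of -0.52 ± 0.15 (adjusted p = 0.028), a call lost without NC3, HFD2 or HFD6 (adjusted p from 0.0528 to 0.0563).

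The reference sequence before the Cpt1a start site is shown because of this call. The 250 bases before the RefSeq start, chr19:3323051-3323300 of GRCm38.p6 on the plus strand, hold 1 copy of TGACCT, the reverse complement of the nuclear receptor hexamer AGGTCA, given in capitals.
Cpt1a upstream: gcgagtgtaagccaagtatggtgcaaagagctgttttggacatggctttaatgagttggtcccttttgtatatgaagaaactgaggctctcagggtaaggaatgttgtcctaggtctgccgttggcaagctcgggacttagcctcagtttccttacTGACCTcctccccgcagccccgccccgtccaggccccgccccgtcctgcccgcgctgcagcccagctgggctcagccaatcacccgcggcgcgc
The hexamer on either strand is a common word, present in 16.3% of all promoter windows of 250 bases before to 50 bases after a start, and its presence is a description only.

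Among the acyl-CoA dehydrogenases, which open each mitochondrial round and differ by chain length, only the long-chain gene passed. Acadl ran from 168 to 214 FPKM (median 191) in NC mice, from 133 to 183 FPKM (median 149) in HFD mice and from 159.6 to 179 FPKM (median 164) in SZ-A mice. The groups overlapped, and its log2 fold change in HFD mice of -0.28 ± 0.09 lay near the threshold (adjusted p = 0.0485); the call was kept in 10 of 24 alternatives and in 3 of 12 when a mouse was left out (without NC6, HFD2 or HFD4), the others giving adjusted p-values from 0.0531 to 0.101. Acadvl (very long chains) had a log2 fold change of -0.16, Acadm (medium chains) of -0.09 and Acads (short chains) of 0.14 in the same comparison. None of these 3 passed, with adjusted p-values of 0.249, 0.602 and 0.285.

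The trifunctional protein and the short-chain hydroxyacyl-CoA dehydrogenase, which act on the same kind of intermediate, moved in opposite directions. Hadha and Hadhb encode the alpha and beta subunits of the trifunctional protein, which carries out the hydration, the second dehydrogenation and the thiolysis for long chains. Hadha ran from 67.8 to 88.9 FPKM (median 76.5) in NC mice, from 58.3 to 71.7 FPKM (median 61.5) in HFD mice and from 59.1 to 74.5 FPKM (median 70.7) in SZ-A mice. Hadhb ran from 46.0 to 63.3 FPKM (median 58.4), from 39.5 to 51.3 FPKM (median 42.8) and from 42.1 to 54.3 FPKM (median 48.5) in the same order. All but 1 HFD mouse, HFD4, lay below every NC mouse for Hadha, and for Hadhb all but HFD4 lay below every NC mouse including NC6. Log2 fold changes in HFD mice were -0.31 ± 0.09 for Hadha (adjusted p = 0.0246) and -0.40 ± 0.09 for Hadhb (adjusted p = 0.00816). The Hadha call was lost without NC3, NC4 or HFD3 (adjusted p from 0.0526 to 0.0564).

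Hadh, the dehydrogenase for short and medium chains, was higher in HFD mice. It ran from 67.9 to 91.7 FPKM (median 80.5) in NC mice, from 93.3 to 127 FPKM (median 114) in HFD mice and from 71.6 to 112 FPKM (median 107) in SZ-A mice. Every HFD mouse lay above every NC mouse, which held for 5.48% of all genes and, of the 33, for Hadh and Ucp2. Its log2 fold change was 0.49 ± 0.10 (adjusted p = 0.00402), and it was higher in all 24 alternatives. The ratio of Hadh to Hadha within a mouse, a measure chosen after the values were seen and not tested, lay between 0.892 and 1.21 in NC mice, between 1.52 and 1.97 under HFD and between 1.08 and 1.895 after SZ-A.

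Hadha and Hadhb lie head to head on chromosome 5, and the sequence between them is shown because the subunits of this complex fell together. The gap of 85 bases, chr5:30155163-30155247 of GRCm38.p6 on the plus strand, separates the bounds that the deposited table gives for Hadha, on the minus strand, and Hadhb, on the plus strand, and its bases are from RefSeq. No hexamer AGGTCA was found in the promoter window of either gene.
Hadha to Hadhb: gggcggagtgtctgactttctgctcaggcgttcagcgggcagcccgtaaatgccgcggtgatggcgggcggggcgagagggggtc
Of 100-base windows along Hadhb transcripts, 14.8% also occurred in the annotated entries Gm13910 and Gm9108, so part of its count depends on how shared reads were assigned. Hadha had no shared window.

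**Figure D2:**
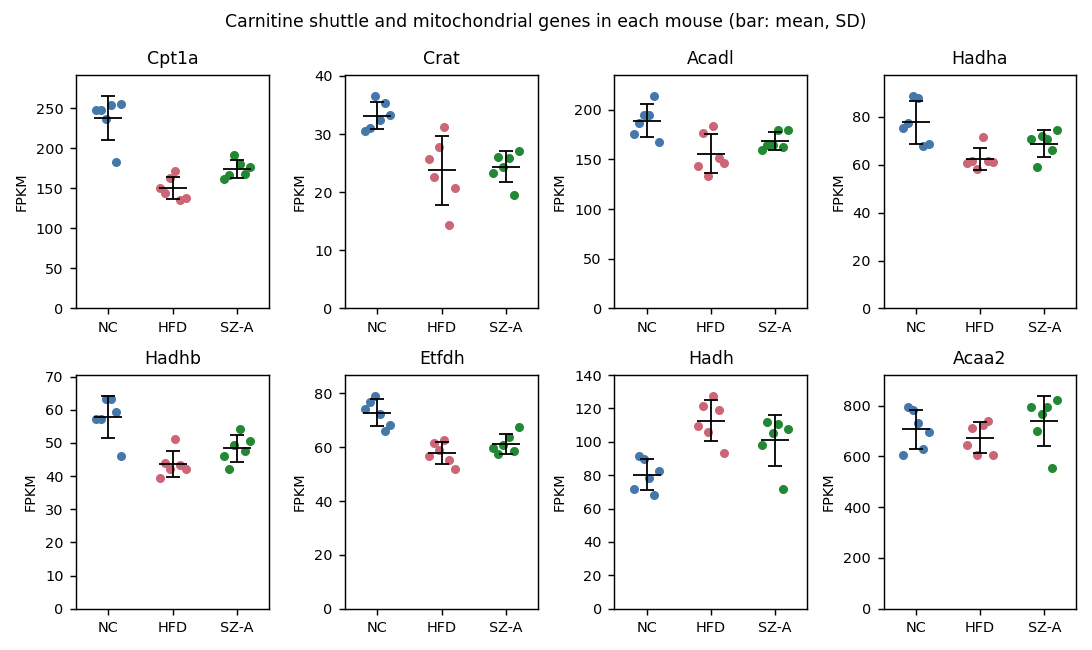
FPKM of Cpt1a, Crat, Acadl, Hadha, Hadhb, Etfdh, Hadh and Acaa2 in each of the 18 mice by group, with the mean and SD as bars. Cpt1a and Etfdh lie below, and Hadh above, every NC mouse in all 6 HFD mice, while Acaa2 overlaps across groups.

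Acaa2, the thiolase that ends the mitochondrial round for shorter chains, did not pass in any comparison, with medians of 713, 680 and 779 FPKM in NC, HFD and SZ-A mice. Its log2 fold change in HFD mice was -0.07, with a 95% interval of -0.27 to 0.14. The accessory enzymes for unsaturated chains did not pass either. Decr1, the mitochondrial dienoyl-CoA reductase, had a log2 fold change of -0.21 (adjusted p = 0.137), Eci1, the mitochondrial enoyl-CoA isomerase, of 0.02 (adjusted p = 0.937) and Eci2, an isomerase of both compartments, of -0.21 (adjusted p = 0.129).

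Electrons from the acyl-CoA dehydrogenases pass through electron transfer flavoprotein (Etfa and Etfb) to its ubiquinone oxidoreductase, Etfdh. Etfdh ran from 66.0 to 79.0 FPKM (median 73.3) in NC mice, from 52.0 to 62.5 FPKM (median 58.0) in HFD mice and from 57.5 to 67.6 FPKM (median 60.3) in SZ-A mice. Every HFD mouse lay below every NC mouse, and the log2 fold change was -0.33 ± 0.07 (adjusted p = 0.00646). Etfa had a log2 fold change of -0.16 ± 0.09 that did not pass (adjusted p = 0.232). Etfb had a larger one, -0.43 ± 0.17, with wide spread (35.2 to 71.7 FPKM in NC and 28.9 to 41.0 FPKM in HFD mice), and did not pass (adjusted p = 0.0831). Without NC6 it did (adjusted p = 0.0456), as it did without NC1. Of the transcript windows of Etfb, 35.8% also occur in the entry Gm45233, the largest share among the 33.

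Of the 16 mitochondrial genes together, 1 was higher and 5 were lower, and 3 had a positive log2 fold change, against 45.1% of all genes, with a median of -0.18 that turned to 0.0126 when mice were scaled to a common sum. Relative to the median of all genes, the medians were -0.147 and -0.141 on those scales. On the common sum, 7 of the 33 genes passed. Of these, Cpt1a and Ehhadh were lower, against 3.27% of all genes on that scale, and Acads, Acot3, Hadh, Ucp2 and Vnn1 higher, against 20.6%. Acadl, Hadha, Hadhb, Etfdh, Crat and Acot1 kept negative log2 fold changes there but did not pass, with adjusted p-values from 0.052 for Acot1 to 0.545 for Acadl. The summed FPKM of HFD libraries was 353946 to 424825 and that of NC libraries 402436 to 489187, with the hepatocyte marker albumin (Alb) alone at 16117 to 29799 FPKM in HFD and 25075 to 36612 FPKM in NC mice. The part of this difference in the size of each change was not tested beyond the rescaling.

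Of the peroxisomal genes, Ehhadh alone passed. Ehhadh, the L-bifunctional enzyme that hydrates and dehydrogenates enoyl-CoAs and is a classic PPARα target, ran from 484 to 1159 FPKM (median 808) in NC mice, from 218 to 577 FPKM (median 355) in HFD mice and from 242 to 419 FPKM (median 319.9) in SZ-A mice. HFD2 and HFD4 were the only HFD mice above the lowest NC mouse, NC6. Its log2 fold change in HFD mice of -1.15 ± 0.27 (adjusted p = 0.00997) was the largest of the 33 genes, a 2.21-fold difference, and it was -1.28 without NC6.

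Hsd17b4, the D-bifunctional enzyme that catalyses the same steps for branched and very long chains, had medians of 253, 221 and 225 FPKM in NC, HFD and SZ-A mice, and did not pass in HFD mice (log2 fold change -0.10, adjusted p = 0.448). The ratio of Ehhadh to Hsd17b4 within a mouse, again chosen after the values were seen, lay between 2.29 and 4.61 in NC mice, between 1.02 and 2.47 under HFD and between 1.196 and 2.06 after SZ-A. The thiolases stayed within overlapping ranges. Acaa1b ran from 899.8 to 1700 FPKM in NC and from 956 to 2196 FPKM in HFD mice, and Acaa1a had a log2 fold change of -0.06, with a 95% interval of -0.32 to 0.20. These copies share 19.3% of Acaa1b windows, so reads can be split between them. Crot, the octanoyltransferase that exports shortened chains, varied from 99.7 to 333 FPKM within NC mice alone, the lowest being NC5, and Decr2, the peroxisomal dienoyl-CoA reductase, ran from 103 to 158 FPKM in HFD mice. Neither passed (adjusted p = 0.724 and 0.669). Without NC5, Crot had a log2 fold change of -0.39 and did not pass either (adjusted p = 0.085).

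Of the 6 peroxisomal genes, 1 passed and 5 had a negative log2 fold change, with a median of -0.0831 that turned to 0.11 on the common sum and was -0.0497 and -0.0442 relative to all genes. Acad11, a dehydrogenase for hydroxy acids counted with the enzymes of both compartments, had a log2 fold change of -0.25 with an adjusted p of 0.045, but its fold of 1.19 lay under the limit. Without NC6 it passed (log2 fold change -0.28, adjusted p = 0.0317), as it did without NC5 or HFD4.

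**Figure D3:**
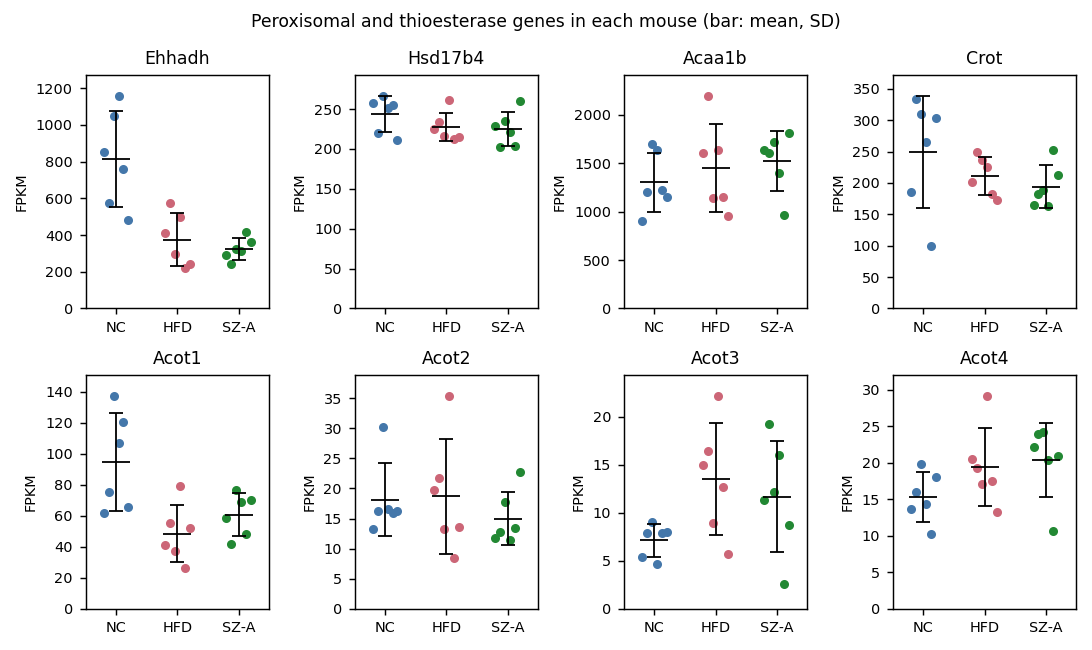
FPKM of Ehhadh, Hsd17b4, Acaa1b, Crot and the thioesterases Acot1 to Acot4 in each of the 18 mice by group, with the mean and SD as bars. Ehhadh is at 484 to 1159 FPKM in NC mice and at 218 to 577 FPKM in HFD mice, whereas Hsd17b4 overlaps fully.

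The acyl-CoA thioesterases release free acids from acyl-CoAs in the cytosol (Acot1), mitochondria (Acot2) and peroxisomes (Acot3 and Acot4), and the 4 genes sit in a cluster on chromosome 12. They did not move together. Acot1 ran from 61.7 to 137 FPKM (median 91.3) in NC mice, from 26.3 to 79.2 FPKM (median 46.6) in HFD mice and from 41.7 to 76.9 FPKM (median 63.9) in SZ-A mice. All HFD mice but HFD4 lay below every NC mouse, and the log2 fold change was -0.98 ± 0.26 (adjusted p = 0.0186).

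Acot3 had the opposite sign at a log2 fold change of 0.82 ± 0.28, from 4.65 to 8.99 FPKM in NC and from 5.69 to 22.2 FPKM in HFD mice, and just missed the threshold (adjusted p = 0.0539). Acot4 had a log2 fold change of 0.33 (adjusted p = 0.22) and Acot2 of -0.05 (adjusted p = 0.928). Within a mouse, the ratio of Acot1 to Acot3 was 8.25 to 23.0 in NC and 2.07 to 9.13 in HFD mice, a description of values already seen. Shared windows made up 8.24% to 17.1% of these 4 genes' transcripts, so their levels carry some uncertainty from shared reads. The windows of Acot2 were shared with Acot1. For Acot3 the largest share, 9.53%, was with the entry Gm49366, and for Acot4, 8.23% with the entry 4732463B04Rik.

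Bdh1, the mitochondrial enzyme that forms the main ketone body 3-hydroxybutyrate, had a log2 fold change of 0.03 in HFD mice, with a 95% interval of -0.39 to 0.45. NC mice varied most, from 42.8 FPKM in NC5 to 100.4 FPKM in NC2. Without NC5 the log2 fold change was -0.14. Its sign also changed without NC1, without HFD4 and with sample weights.

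Vnn1 and Ucp2 were higher in HFD mice. Vnn1, a pantetheinase that recycles the vitamin part of coenzyme A, ran from 46.5 to 103 FPKM (median 64.1) in NC mice, from 98.9 to 159 FPKM (median 107) in HFD mice and from 85.7 to 113 FPKM (median 95.2) in SZ-A mice. Only NC3 reached the HFD range, and the log2 fold change was 0.83 ± 0.17 (adjusted p = 0.00501). Ucp2, a carrier of the mitochondrial inner membrane that is also expressed by macrophages, ran from 4.92 to 6.64 FPKM (median 5.78) in NC mice, from 6.78 to 13.3 FPKM (median 8.08) in HFD mice and from 4.99 to 7.48 FPKM (median 6.65) in SZ-A mice. NC and HFD did not overlap, and the log2 fold change was 0.64 ± 0.15 (adjusted p = 0.0108).

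Several macrophage markers were also higher in HFD than in NC mice. The sum of the 11 markers lay between 212 and 382 FPKM in NC mice, between 367 and 585 FPKM under HFD and between 331 and 471 FPKM after SZ-A, with no marker at 0 in all mice, and 6 of the 11 were higher in HFD mice (Lyz2, Cd5l, C1qb, C1qa, Cd68 and Adgre1). Their part in the Ucp2 difference was not tested. Clock genes also differed, with Dbp and Per3 higher in HFD than in NC mice and the sum of the 10 clock genes between 27.1 and 91.1 FPKM in NC mice and between 83 and 115 FPKM under HFD. Of 5 adipocyte markers, Cfd was at 0 to 7.47 FPKM in NC mice and at 19.4 to 135 FPKM under HFD, and Fabp4 was higher as well, whereas the defining markers Adipoq, Plin1 and Lep were at or near 0 in all 18 mice, with no value above 0.618 FPKM. The part of the clock in any value here was not tested either. Pdk4, the kinase that shuts pyruvate dehydrogenase and so spares glucose when fat is burned, ran from 4.18 to 17.7 FPKM in NC and from 2.91 to 8.05 FPKM in HFD mice, and did not pass (log2 fold change -0.62 ± 0.30, adjusted p = 0.168).

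The comparison of SZ-A with HFD mice sets the extract against saline on the same diet, with the HFD mice shared with the comparison above. The authors state that they could not tell the liver effect of SZ-A apart from weight loss, and the part of weight here was not tested. None of the 33 genes passed, where 0.147% of all genes, 15 in number, did. With DESeq2 at the same thresholds, the paper reports far more genes between these groups. DESeq2 was not rerun here, so these counts hold for the main limma fit. At an unadjusted p under 0.05 stood 6 of the 33, where 14.8% of all genes did. Among these, 4 had positive log2 fold changes (Cpt1a, Etfb, Eci2 and Bdh1), against 8.74% of all genes, and 2 negative ones (Pdk4 and Ucp2), against 6.09%. In order of size, the 5 genes with the largest log2 fold changes were Pdk4, Ucp2, Acot1, Etfb and Bdh1.

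Pdk4 had the largest difference. Levels were 5.50, 6.10, 8.05, 4.91, 2.91 and 5.38 FPKM in HFD1 to HFD6 and 1.71, 1.84, 2.90, 2.204, 7.32 and 2.28 FPKM in SZ-A1 to SZ-A6. All SZ-A mice but SZ-A5 lay below every HFD mouse, the nearest values being 2.90 and 2.91 FPKM. The log2 fold change was -0.96 ± 0.32, with a 95% interval of -1.66 to -0.27 (adjusted p = 0.193). Without SZ-A5 it was -1.25 and passed (adjusted p = 0.0393), the only one of the 33 to do so. SZ-A5 also had a low level of the clock gene Dbp and a high level of the cholangiocyte marker Krt19. The part of sampling time or of cell composition in its Pdk4 level was not tested.

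Ucp2 had a log2 fold change in SZ-A against HFD mice of -0.45 ± 0.16 (95% interval -0.80 to -0.11, adjusted p = 0.207). SZ-A1 was lowest at 4.99 FPKM, and of the other SZ-A mice all but SZ-A5 (7.48 FPKM) lay below the lowest HFD mouse, HFD3 (6.78 FPKM). Of the macrophage markers, Cd68 was lower in SZ-A mice (7.39 to 11.6 FPKM against 12.1 to 17.0 FPKM in HFD), and its part in the Ucp2 value was not tested.

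Bdh1 had the smallest p of the 33 in this comparison. It ran from 64.9 to 92.7 FPKM (median 81.8) in HFD mice and from 90.0 to 106 FPKM (median 97.3) in SZ-A mice, with only HFD4 inside the SZ-A range. The log2 fold change was 0.32 ± 0.09, with a 95% interval of 0.12 to 0.52 and an adjusted p of 0.15. Acot1 had a log2 fold change of 0.38 ± 0.24 (adjusted p = 0.485). Etfb, from 28.9 to 41.0 FPKM (median 35.4) in HFD and from 30.0 to 57.1 FPKM (median 49.3) in SZ-A mice, had one of 0.34 ± 0.16 (adjusted p = 0.337), and 2 SZ-A mice lay within the HFD range.

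Cpt1a, the entry enzyme, had a log2 fold change in SZ-A against HFD mice of 0.22 ± 0.07 (95% interval 0.06 to 0.38, adjusted p = 0.20), all 6 SZ-A mice lying above the HFD mean of 150.2 FPKM. On the common sum the value was 0.04. Eci2, from 38.6 to 54.8 FPKM in HFD and from 45.5 to 63.1 FPKM in SZ-A mice, had a log2 fold change of 0.31 ± 0.11 (adjusted p = 0.201). Ehhadh, by contrast, had one of -0.13 ± 0.23, with a 95% interval of -0.63 to 0.38 (adjusted p = 0.84). Hadh had -0.17 ± 0.11 (adjusted p = 0.53), or -0.07 without SZ-A5, its lowest mouse.

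Among the 16 mitochondrial genes, 13 had a positive log2 fold change against 56.2% of all genes, with a median of 0.124 that turned to -0.0545 on the common sum, and the median over all genes moved from 0.0252 to -0.149. Relative to all genes, the median of the mitochondrial genes was 0.0986 and 0.0941. The peroxisomal genes had a median of 0.0417, which turned to -0.137, with 3 of 6 positive. Single values ran from -0.17 for Hadh to 0.34 for Etfb among the mitochondrial genes and from -0.13 for Ehhadh to 0.19 for Acaa1a among the peroxisomal ones. The remaining thioesterases had log2 fold changes of -0.22 (Acot2), -0.31 (Acot3) and 0.06 (Acot4), and Acot3 turned to 0.07 without SZ-A5, in which it was lowest at 2.56 FPKM. Vnn1 had one of -0.24 ± 0.12 (adjusted p = 0.363).

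**Figure D4:**
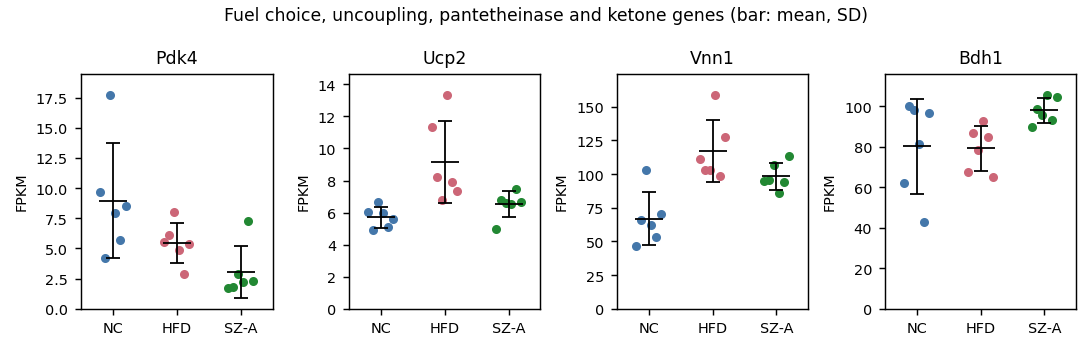
FPKM of Pdk4, Ucp2, Vnn1 and Bdh1 in each of the 18 mice by group, with the mean and SD as bars. Pdk4 is at 1.71 to 2.90 FPKM in all SZ-A mice but SZ-A5 (7.32 FPKM), and Ucp2 is at 6.78 to 13.3 FPKM in HFD mice.

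The comparison of SZ-A with NC mice, which shares its NC mice with the comparison of diets, shows which differences from chow were present under the extract. Of the 33 genes, 5 passed, against 9.6% of all genes. Vnn1 was the 1 higher gene, against 5.31% of all genes, and Cpt1a, Crat, Ehhadh and Pdk4 were the 4 lower ones, against 4.3%. Ehhadh had a log2 fold change of -1.28 ± 0.21 (adjusted p = 0.00312), and every SZ-A mouse lay below every NC mouse, as was the case for Crat. That separation was found for 2.67% of all genes.

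Crat had a log2 fold change of -0.45 ± 0.09 (adjusted p = 0.00748) and Cpt1a of -0.44 ± 0.09 (adjusted p = 0.0104). Vnn1 had one of 0.59 ± 0.16 (adjusted p = 0.0311), a call kept in 15 of 24 alternatives. It was lost on the common sum, with no filter, and without any 1 of NC1, NC2, NC4, SZ-A1, SZ-A2, SZ-A3 or SZ-A6, with adjusted p-values from 0.0525 to 0.0724 when a mouse was left out. Pdk4 had one of -1.58 ± 0.37 (adjusted p = 0.0177), a 2.98-fold difference that was also the largest of the 33 in this comparison. Hadh did not pass (log2 fold change 0.32 ± 0.12, adjusted p = 0.106), and neither did Ucp2 (0.19 ± 0.10, adjusted p = 0.275). Etfdh had an adjusted p of 0.0404 but a fold of 1.19, under the limit. Without NC6, Etfdh (adjusted p = 0.044) and Hadhb (adjusted p = 0.0266) passed as lower. Etfdh also passed without NC5 or SZ-A6. Without SZ-A5, 8 genes passed, with Hadh (adjusted p = 0.0116), Acot3 (adjusted p = 0.0203) and Acot4 added as higher. A gene that passed against NC in HFD but not in SZ-A mice is not thereby shown to differ between HFD and SZ-A, and in that direct comparison none passed.

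Mitochondrial and peroxisomal transcripts were of similar total size. Summed over the 16 mitochondrial genes, the NC mice had 2349 to 2815 FPKM (median 2626), the HFD mice 2110.0 to 2629 FPKM (median 2343) and the SZ-A mice 2153 to 2744 FPKM (median 2557). Summed over the 6 peroxisomal genes, they had 2391 to 3591 FPKM (median 2593), 1774 to 3517 FPKM (median 2401) and 2065 to 2932 FPKM (median 2557) in the same order. The ratio of the mitochondrial to the peroxisomal sum lay between 0.75 and 1.06 in NC mice, between 0.717 and 1.22 under HFD and between 0.936 and 1.14 after SZ-A, and the groups overlapped. Acaa1b, with a mean of 1424 FPKM, is the largest term of the peroxisomal sum, and its median was 1215 FPKM in NC and 1376 FPKM in HFD mice, while that of Ehhadh, the next largest, was 808 and 355 FPKM.

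**Figure D5:**
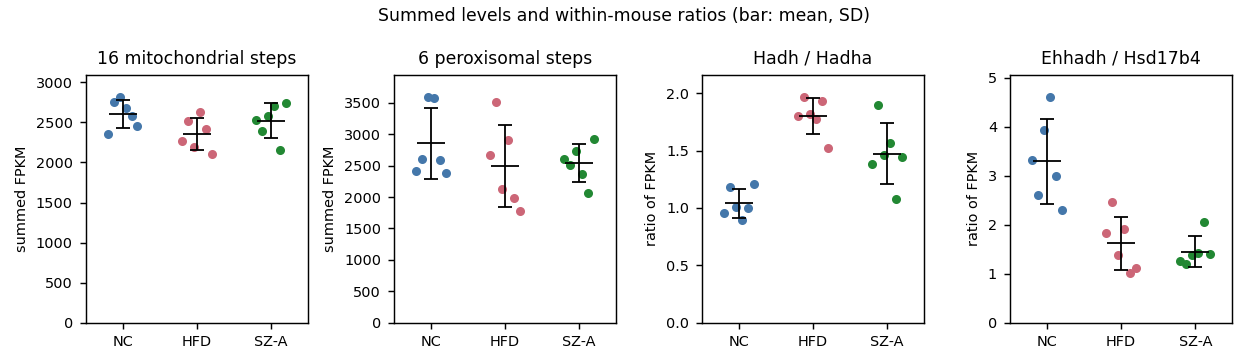
Summed FPKM of the 16 mitochondrial and the 6 peroxisomal genes, and the within-mouse ratios of Hadh to Hadha and of Ehhadh to Hsd17b4, in each of the 18 mice by group, with the mean and SD as bars. The sums overlap between groups, whereas the Hadh to Hadha ratio is 0.892 to 1.21 in NC and 1.52 to 1.97 in HFD mice.

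Of 42 further genes of acyl-CoA activation, oxidation and ketone body metabolism, 40 were tested, and Cpt1b and Eci3 were below the level required. In HFD against NC mice 13 passed, against 20.2% of all genes, with log2 fold changes from 0.33 for Acox3 to 1.19 for Nudt7 among the 7 higher genes and from -0.30 for Acad8 to -0.91 for Slc16a1 among the 6 lower. Among the higher were Abcd2, a transporter of fatty acyl-CoAs into peroxisomes, Nudt7, a peroxisomal hydrolase of coenzyme A, and Acad10, Acot13, Acox3 and Oxct1. Among the lower were Acot12, a cytosolic acetyl-CoA thioesterase, Slc16a1, the carrier that exports ketone bodies and lactate, Acsl5, an acyl-CoA synthetase, and Acad8 and Hsdl2.

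Nudt7 had the largest of these, with a log2 fold change of 1.19 ± 0.22 (adjusted p = 0.00245), from 12.8 to 31.6 FPKM in NC and 32.3 to 63.2 FPKM in HFD mice without overlap. Acot12 had -0.60 ± 0.08 (adjusted p = 0.000424) and Slc16a1 -0.91 ± 0.18 (adjusted p = 0.00328). In SZ-A against HFD mice 0 of the 40 passed and 7 stood at an unadjusted p under 0.05, against 14.8% of all genes. In SZ-A against NC mice 5 passed, against 9.6% of all genes, among them Nudt7 (log2 fold change 1.504) as higher and Acot12 (-0.57), Acsl4 (-0.72) and Slc16a1 (-0.91) as lower.

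The peroxisome proliferator response element is a direct repeat of the hexamer with 1 base between. The repeat, AGGTCA, any 1 base and AGGTCA again, was searched on both strands with up to 2 mismatches among its 12 fixed letters in the RefSeq promoter windows, which hold 28 of the 33 genes (without Hsd17b4, Crat, Vnn1, Decr1 and Acaa2). It was found in 3 genes, 10.7% of the 28, against 4.4% of 27025 genes, a description on small numbers. The matches are shown in capitals within their gene's strand, because they are the closest of this list to the element.
Etfa, chr9:55512308-55512320: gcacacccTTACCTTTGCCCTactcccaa
Slc25a20, chr9:108662142-108662154: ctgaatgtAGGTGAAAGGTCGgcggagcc
Acot4, chr12:84038366-84038378: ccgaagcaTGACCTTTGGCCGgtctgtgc
Each has 2 mismatches, and the coordinates are those of the match on GRCm38.p6. Etfa lies on the minus strand and the other genes on the plus strand. None of these 3 genes passed in HFD against NC mice or in SZ-A against HFD mice. No match was found in the windows of Ehhadh, Cpt1a, Acot1 or Pdk4. Sequence beyond 250 bases before and 50 bases after a start was not searched, so elements elsewhere would be missed.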

How the data were processed

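Liver RNA of 18 mice was poly-A selected and sequenced as paired-end reads on an Illumina NovaSeq. Per the labels and methods, the authors aligned reads to GRCm38 with HISAT2 2.0.5, counted with featureCounts 1.5.0-p3 per the processing notes, and deposited FPKM values for 54532 genes. The FPKM columns used were those of the 18 mice. FPKM times length gave whole fragments for 100% of values above 0, within 0.05 of a fragment. The library size that the FPKM imply was 0.933 to 1.02 times the fragments on genes in NC mice. It was 0.998 to 1.14 times in HFD mice and 0.972 to 1.05 times in SZ-A mice. Further scaling by median ratios left the median log2 fold change of all genes at -0.03325 against -0.03341 in HFD against NC. That alternative, and voom with median-ratio library sizes, therefore lay close to the main scale. Counting error is part of the spread between mice.

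Groups were read from sample titles. Each pair of groups was fitted in R 4.3.3 with limma 3.58.1 (lmFit, eBayes with trend) on log2(FPKM + 0.1) for the 10216 genes with a mean of at least 1 FPKM, with no covariate. Fold changes on this scale understate those of low genes. A call required a fold change above 1.2 and, after Benjamini-Hochberg adjustment across those genes, a p below 0.05. Test scripts were checked on simulated data. The authors used DESeq2, which was not rerun here, and the recovered fragments were tested with voom as an alternative. No pairing of mice by replicate number was used in the main fit.

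The members, the further pathway genes and the tests were chosen with earlier results of these data known. Every member is named, and full values are given for those called, for the 5 largest changes in SZ-A against HFD mice, and for Cpt1a, Ehhadh and Ucp2. Of the other pathway genes, those called are named, except for results not reported here. Promoters are from RefSeq, and transcript windows of 100 bases from GENCODE. Python 3.11.15 with pandas 2.3.3 was used. Calls among the other marker lists in HFD against NC mice were stellate cell 3 of 6 higher in HFD mice, adipocyte 2 of 5 higher, clock 2 of 10 higher, hepatocyte 3 of 6 lower, and endothelial, cholangiocyte, T cell, B cell, red blood cell and muscle lists 0.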

Additional observations from a re-analysis of the deposited data

Results flagged for a closer look

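In 13 of 99 gene and group combinations 1 mouse stood apart, its gap to the nearest mouse on the log2(FPKM + 0.1) scale being more than Dixon's 95% value of the range of its 6 mice. Chance gives about 1 in 20. Of these, 5 fell in SZ-A5, which was low for Hadh (71.6 FPKM, next 98.0), Decr2 (131 FPKM, next 152), Acaa1a (95.9 FPKM, next 116) and Acot4 (10.6 FPKM, next 20.4), and high for Pdk4 (7.32 FPKM, next 2.90). HFD4 was high for Hadha (71.7 FPKM, next 61.8) and Acad11 (54.5 FPKM, next 45.3). NC6 was low for Acadm (159.5 FPKM, next 202) and Hadhb (46.0 FPKM, next 57.1). NC5 was low for Cpt1a (182 FPKM, next 237), NC1 low for Slc25a20 (36.6 FPKM, next 42.6), NC3 high for Acot2 (30.3 FPKM, next 16.7) and SZ-A1 low for Ucp2 (4.99 FPKM, next 6.57). NC5 and SZ-A5 also held the lowest Dbp of their groups, at 0.990 and 7.23 FPKM, and SZ-A5 the highest Krt19 of its group, at 8.45 FPKM. The part of sampling time or of cell composition in these values was not tested.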

How the results depend on the processing

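Of 1380 values under alternatives, 1294 were counted as unchanged, 44 fell below the threshold, 12 passed it, 30 moved and 0 reversed. Unchanged meant the same direction and side of the threshold for a gene, and within 1.5 times for a count. For a median it meant a move of less than the SD between mice, whatever its sign. Only genes that passed in the main fit could count as reversed, and other genes that changed sign counted as moved. On a common sum of FPKM, 10 of the 33 genes changed sign in HFD against NC and 14 in SZ-A against HFD. With no filter on low values, 4 of the 33 genes and 4 other pathway genes passed in HFD against NC, and 1 and 3 in SZ-A against NC, where 54532 genes were adjusted for. On a common sum of FPKM, 7 of the 33 passed in HFD against NC, and medians became 0.0418 for all 33 and 0.0126 for mitochondrial genes. In SZ-A against HFD they became -0.0952, -0.0545 and, for peroxisomal genes, -0.137. With sample weights, 1 gene (Pdk4) passed in SZ-A against HFD, and 8 of the 33 and 10 others in SZ-A against NC. Leaving out each mouse in turn gave 8 to 13 of the 33 in HFD against NC (8 without NC3, 13 without NC6), 0 to 1 in SZ-A against HFD (1 without SZ-A5) and 4 to 8 in SZ-A against NC (8 without SZ-A5), and up to 9 other pathway genes there without SZ-A5. The causes were not tested. Same-numbered mice correlated at -0.117 to 0.292 in their deviations. Correlations of this kind cannot exclude a pairing by number. With a replicate block, 9, 0 and 7 of the 33 passed in HFD against NC, SZ-A against HFD and SZ-A against NC.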
